A study of Arabidopsis thaliana with 36 samples.

Results

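AT1G04560, AT1G05340, AT1G68500 and AT5G66780 are 4 protein-coding genes of Arabidopsis thaliana whose transcripts were much more abundant in root cells after 1 h of salt. They are taken here from 13356 genes that have an ATH1 probe set of their own in the annotation used. Each was measured by 1 probe set that the platform annotation assigns to that gene alone. The genes were chosen by their log2 change with salt on these same arrays: AT1G04560, AT1G05340 and AT1G68500 ranked 7, 11 and 18 of 17633 probe sets tested by the mean change over all populations, and AT5G66780 ranked 5 by its change in columella (24 by the mean). Their changes with salt are therefore given as a description, without a test, and for these genes only differences between populations on the same medium are tested. For AT5G66780 the choice favours a high columella level with salt and a low one on standard medium. Its tests between populations are thus not independent of the choice.

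RNA came from 6 root cell populations of ecotype Columbia seedlings, sorted by fluorescence from protoplasts of lines that express GFP in part of the root. Roots of the salt groups spent 1 h on 140 mM NaCl and were then protoplasted, and the standard groups were grown without added NaCl. All roots were 6 days old, and 3 arrays in each of 12 groups gave 18 salt and 18 standard arrays. WER::GFP marks the epidermis together with the lateral root cap, PET111 the columella, CORTEX the cortex, SCR::GFP the endodermis together with the quiescent center, WOL::GFP the stele and S32 the protophloem, so epidermis and endodermis below stand for mixtures of those cell types.

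Salt withdraws water from root cells, and plants answer with the hormone abscisic acid (ABA), which acts through bZIP transcription factors on genes whose products protect membranes and proteins from drying. AT1G04560 encodes a protein of the AWPM-19 family, small membrane proteins first found in wheat cells treated with ABA, and a member in rice carries ABA into cells. AT1G05340 encodes a CYSTM protein, one of a family of very short proteins that end in a cysteine-rich transmembrane module and are linked to stress tolerance. No role is given here for AT1G68500 and AT5G66780.

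Values are MAS5 signals, a linear intensity per probe set with nearly the same trimmed mean on each array (250.02 to 250.03). Array medians ran from 62.1 to 95.6, and correlations between arrays of a group from 0.862 to 0.988 on the log2 scale. Log2 changes are of (signal + 16), which understates changes of low signals. An array's 40th percentile lay between 32.4 and 66.3, and a signal below it is called low here, because no detection calls were used. Of 20 cell type markers 7 had a probe set of their own: the cortex gene AT1G09750 was highest in cortex, at 235 ± 27.2 with salt and 2650.0 ± 413 on standard medium (SD, n = 3), and OPS (AT3G09070), a gene of phloem development, peaked in protophloem at 129 ± 14.6 with salt and 72.5 ± 28.3 on standard medium. The cortex marker AT1G62500 was at most 24.5 (cortex) with salt and 37.7 (protophloem) on standard medium. AT4G28100, listed for endodermis and quiescent center, was highest in endodermis, at 292 with salt and 447 on standard medium. Its next highest populations had 161 and 383. The quiescent center gene AGL42 was highest in cortex with salt at 357 ± 198 and in endodermis on standard medium at 153 ± 23.9. The stele gene PHV was highest in stele, at 331 with salt and 381 on standard medium, with the next populations at 233 and 373. The stele gene LHW was highest in protophloem with salt and in stele on standard medium (596, next population 402). The epidermis and columella markers had no probe set of their own in the annotation used, which gives no gene for 8730 of 22810 probe sets. Whether the array measures these markers was not tested. Nothing in the labels says that replicates came from separate plantings, so errors measure the spread between these arrays. In sorted populations, a change of the RNA per cell and a change in which cells were collected cannot be told apart.

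**Figure D1:**
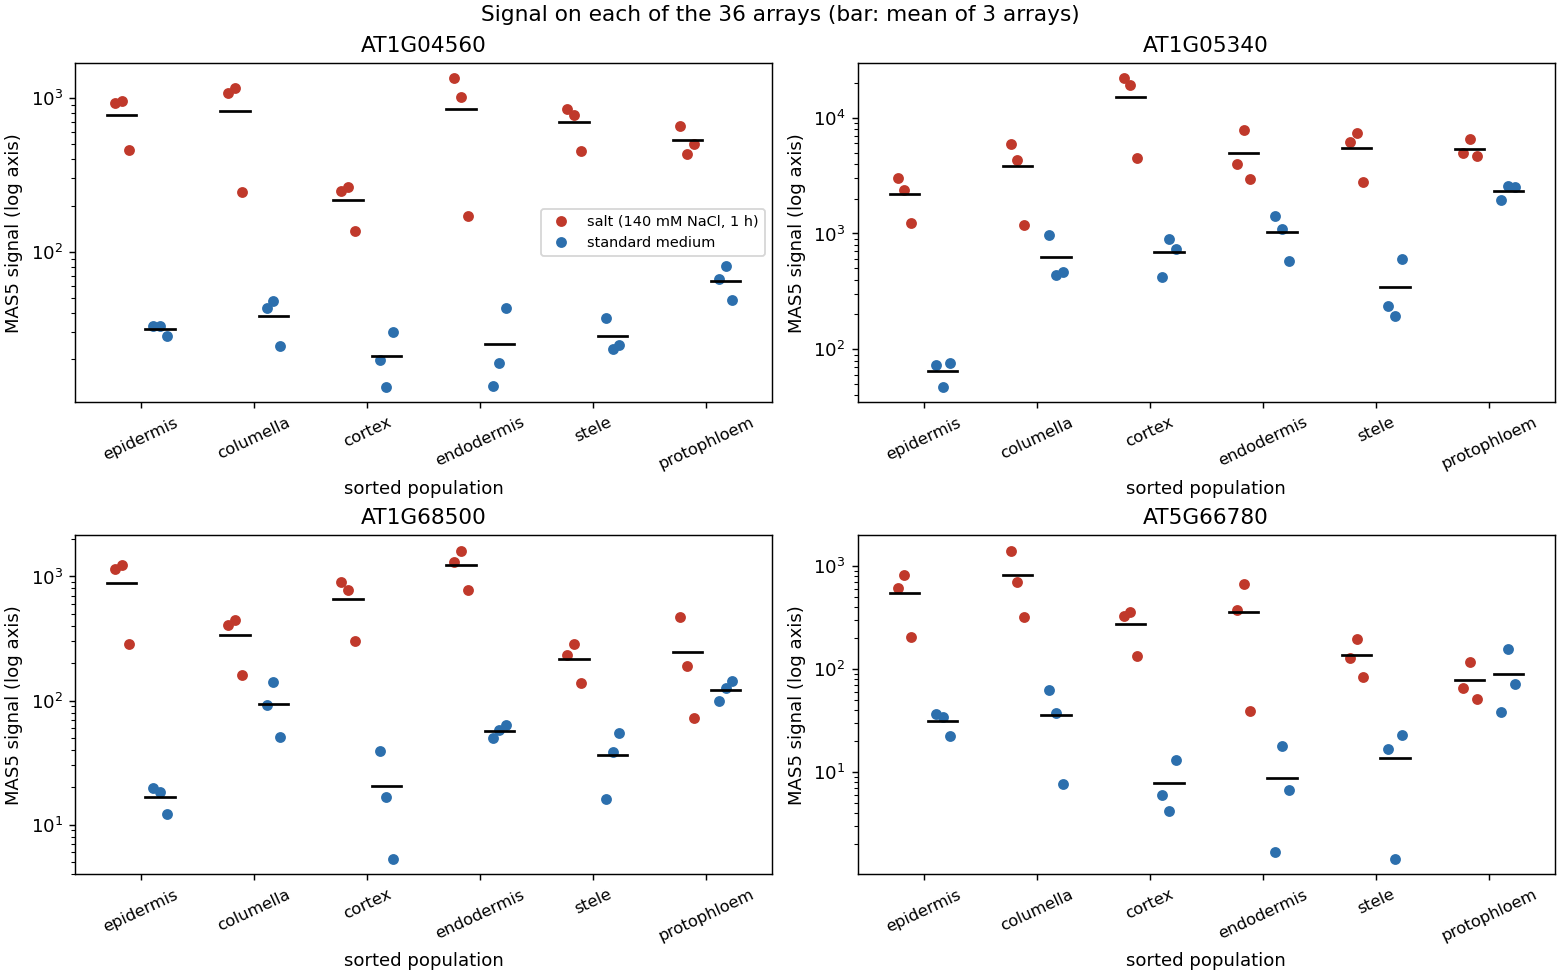
MAS5 signal (log axis) of the 4 genes on each of 36 arrays, with the salt arrays in red left of the standard arrays in blue for each sorted population, and a bar at the mean of 3 arrays. Salt and standard arrays separate in every population for AT1G04560 and AT1G05340, and overlap in protophloem for AT1G68500 and AT5G66780. The genes were chosen for large changes with salt, so the separation is a description, and no share over all probe sets is given.

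The AWPM-19 gene AT1G04560 had mostly low signals on standard medium and signals between 136 and 1344 with salt in all 6 populations. In endodermis it had 1344, 1024 and 172 on salt arrays, against 13.4, 19.0 and 42.9 on standard arrays. In epidermis it had 927, 953 and 461 with salt, against 32.8, 32.8 and 28.1 on standard medium. In stele the values were 854, 782 and 452 with salt, against 37.3, 23.2 and 24.8. The log2 changes of these 3 populations were of like size, at 4.03 ± 0.51 in endodermis, 4.01 ± 0.51 in epidermis and 3.96 ± 0.51 in stele (SE, n = 3 against 3, spread pooled over all 36 arrays). Columella had 1086, 1162 and 245 on salt arrays, against 43.1, 47.6 and 24.3 on standard arrays, a change of 3.71 ± 0.51. Protophloem had 662, 436 and 501 with salt, against 66.1, 80.3 and 48.2 on standard medium, a change of 2.76 ± 0.51. Cortex had 248, 266 and 136 with salt, against 19.7, 13.2 and 30.1, a change of 2.63 ± 0.51. No salt array overlapped a standard array of any population (136 at the lowest with salt, 80.3 at the highest on standard medium). On standard medium 14 of 18 arrays were below the 40th percentile of their array, so the fold depends on the offset. The mean change over the populations was 3.52 ± 0.21, or 11.4-fold.

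The CYSTM gene AT1G05340 was already well measured before salt, with 0 of 18 standard arrays below the 40th percentile of their array. Epidermis had 3004, 2388 and 1236 on salt arrays, against 72.9, 47.5 and 75.8 on standard arrays, a log2 change of 4.70 ± 0.55. Cortex had 21786, 19030.2 and 4477 with salt, against 418, 901 and 741, a change of 4.20 ± 0.55. Stele had 6135, 7315 and 2804 with salt, against 238, 195 and 596, a change of 3.97 ± 0.55. The 3 other populations had smaller changes. In columella the gene had 5897, 4304 and 1176 on salt arrays, against 979, 441 and 463 on standard arrays, a change of 2.38 ± 0.55. In endodermis it had 4009, 7761 and 2969.8 with salt, against 1424, 1099.5 and 574, a change of 2.21 ± 0.55. In protophloem it had 4921, 6482 and 4631 with salt, against 1949.6, 2551 and 2502 on standard medium, a change of 1.18 ± 0.55. Salt and standard arrays did not overlap in any population, although the lowest salt array of columella (1176) lay below all standard arrays of protophloem. The mean change was 3.11 ± 0.23, or 8.62-fold.

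With the offset of 16, AT1G68500 showed changes of more than 16-fold in 3 populations and a wide interval that included 0 in protophloem. On standard medium 8 of 18 arrays were low, 3 each in epidermis and stele and 2 in cortex, so these folds depend on the offset. With an offset of 64 the log2 changes were 3.35 in epidermis and 3.00 in cortex, and with an offset of 1 they were 5.41 and 5.17. In epidermis it had 1147, 1244 and 285 on salt arrays, against 19.7, 18.5 and 12.1 on standard arrays, a log2 change of 4.55 ± 0.53. In cortex it had 901, 782 and 300.2 with salt, against 39.4, 16.8 and 5.30, a change of 4.18 ± 0.53. In endodermis it had 1310.3, 1616 and 782 with salt, against 49.6, 57.6 and 63.7, a change of 4.04 ± 0.53. The 2 other populations with separate salt and standard arrays had smaller changes. Stele had 231, 286 and 137 on salt arrays, against 16.2, 38.3 and 54.7 on standard arrays, a change of 2.18 ± 0.53. Columella had 407, 449 and 161 with salt, against 92.0, 140.1 and 50.9, a change of 1.65 ± 0.53. Protophloem had 469.7, 190.1 and 72.0 with salt, against 98.6, 127 and 143, and the groups overlapped, since 1 salt array lay below all 3 standard arrays. The protophloem change was 0.59 ± 0.53, with a 95% interval of -0.49 to 1.67, and without salt replicate 1 it was -0.03 ± 0.55.

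AT5G66780 had its largest change in columella and a change near 0 in protophloem. Columella had 1409.7, 698 and 319 on salt arrays, against 63.3, 37.4 and 7.65 on standard arrays, a log2 change of 3.91 ± 0.64. Cortex had 330.3, 360.4 and 132 with salt, against 5.97, 4.20 and 13.1, a change of 3.52 ± 0.64. Epidermis had 609, 808 and 205 with salt, against 36.4, 34.5 and 22.2, a change of 3.38 ± 0.64. Apart from 1 epidermis array, all standard arrays of these populations were low. In endodermis the gene had 371, 673 and 38.7 on salt arrays, against 1.67, 18.1 and 6.71 on standard arrays, a change of 3.35 ± 0.64. In stele it had 129, 198 and 84.3 with salt, against 16.9, 1.44 and 22.8, a change of 2.37 ± 0.64. In protophloem it had 64.8, 117 and 51.0 with salt, against 38.7, 156 and 71.6, so that all 3 salt values fell within the range of the standard arrays. The protophloem change was -0.06 ± 0.64 (95% interval -1.38 to 1.25), which leaves room for a rise of about the size that AT1G05340 had there. Over all arrays 15 of 18 standard signals of AT5G66780 were low, against 1 of 18 salt signals.

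The limma fit placed 4 of 4 genes past an adjusted p of 0.05 with salt in epidermis, columella, cortex, endodermis, stele and the mean over populations, and 1 of 4 (AT1G04560) in protophloem. The genes were chosen by the mean change or the columella change, so these counts are no test and nothing is read from them. They also varied with the setting. In protophloem 4 passed with the GAPDH covariate, 3 on replicates 1 and 2 only and 2 with quantile normalization. In the fits to the 6 arrays of 1 population alone, 2 passed in columella, 3 in endodermis and 2 in protophloem. The shares of all probe sets higher with salt at that threshold were 15.6% in epidermis, 5.27% in columella, 22.4% in cortex, 1.5% in endodermis, 11.5% in stele, 11.8% in protophloem and 20.8% for the mean. Median changes of all probe sets lay between -0.23 (columella and stele) and 0.17 (cortex) on the log2 scale.

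**Figure D2:**
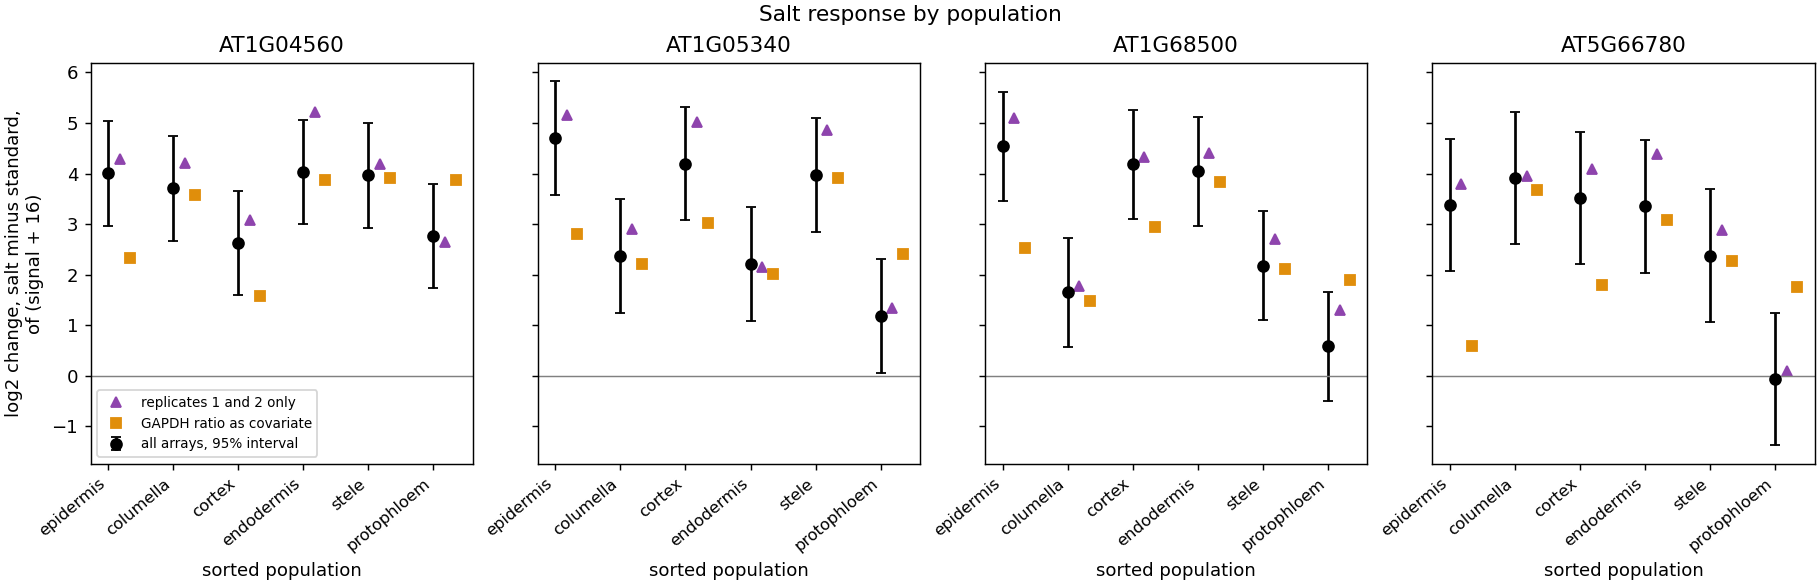
Log2 change of (signal + 16), salt minus standard, by population, as black points with 95% intervals from the fit to all 36 arrays; triangles give the change from replicates 1 and 2 only and squares the change with the GAPDH 5'/3' ratio as a covariate. In the fit to all arrays protophloem has the smallest change of AT1G05340, AT1G68500 and AT5G66780, and with the covariate the change in protophloem is larger and that in epidermis smaller for each gene.

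The protophloem change lay below the mean of the other 5 populations by 2.31 ± 0.60 for AT1G05340, 2.73 ± 0.58 for AT1G68500 and 3.37 ± 0.71 for AT5G66780 on the log2 scale (SE, no test), and by 0.91 ± 0.56 for AT1G04560, whose smallest change was in cortex. GAPDH probe sets at the 5' and 3' end of the transcript serve as a control for RNA quality, with a ratio that is lower in incompletely copied RNA. This ratio was 0.162 ± 0.0880 in protophloem with salt and 0.0499 ± 0.0318 on standard medium (SD, n = 3). In epidermis it was 0.248 ± 0.140 with salt and 1.52 ± 0.163 on standard medium. Cortex had 0.150 with salt and 0.444 on standard medium. The means with salt and on standard medium were 0.226 and 0.239 in stele, 0.159 and 0.183 in endodermis, and 0.142 and 0.173 in columella. With the log2 of this ratio as a covariate, the protophloem changes became 3.87 ± 0.52 for AT1G04560, 2.42 ± 0.56 for AT1G05340, 1.90 ± 0.50 for AT1G68500 and 1.76 ± 0.55 for AT5G66780. The same fit lowered the epidermis changes to 2.32 ± 0.62, 2.81 ± 0.67, 2.53 ± 0.60 and 0.60 ± 0.66 for AT1G04560, AT1G05340, AT1G68500 and AT5G66780. Protophloem then had the smallest change for none of the genes. The smallest was in cortex for AT1G04560 (1.58 ± 0.51), endodermis for AT1G05340 (2.02 ± 0.46), columella for AT1G68500 (1.48 ± 0.41) and epidermis for AT5G66780. The lag of protophloem in the main fit thus depends on leaving the ratio out. The slope on the ratio in this fit comes from the spread within groups, and it is carried over group means from 0.0499 to 1.52. The part of the ratio in the differences between populations was not tested otherwise.

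Before salt, protophloem had the highest mean level of all 4 genes, while it was the highest population for 20.9% of all probe sets tested. The level on standard medium differed between populations for AT1G05340 (limma moderated F = 17.7, adjusted p = 1.68e-07), AT1G68500 (F = 5.24, adjusted p = 0.00216) and AT5G66780 (F = 2.88, adjusted p = 0.0364), and the difference did not pass for AT1G04560 (F = 1.28, adjusted p = 0.31). Such a difference was found for 85.5% of all probe sets. With the GAPDH covariate protophloem was the highest population for 0 of the 4 genes and AT1G68500 did not pass (adjusted p = 0.141). That fit carries a slope found within groups over standard ratios from 0.0499 (protophloem) to 1.52 (epidermis), so it cannot settle the order of populations. On replicates 1 and 2 alone it was the highest for 3 of 4, columella being above it for AT1G68500, and AT1G04560 passed (adjusted p = 7.37e-05). The AT5G66780 call was lost without any 1 of 6 standard arrays (adjusted p up to 0.18, without protophloem replicate 2) and with an offset of 64 (adjusted p = 0.304). It rests mostly on low signals, with 15 of 18 standard arrays below the 40th percentile. Since AT5G66780 was chosen by its columella change, this F value is not independent of the choice.

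The order of the standard levels of AT1G05340, by the mean of log2(signal + 16), was protophloem with 2334 ± 334 (SD, n = 3), endodermis with 1032 ± 429, cortex with 687 ± 246, columella with 627 ± 305, stele with 343 ± 221 and epidermis with 65.4 ± 15.6. Protophloem lay 1.25 above endodermis (95% interval 0.12 to 2.37) and stele 2.00 above epidermis (0.87 to 3.12) on the log2 scale, and the 3 other neighbours in this order had intervals that included 0. From first to last the standard levels spanned 4.86 (3.74 to 5.99). AT1G68500 ran from 123 ± 22.4 in protophloem through columella (94.3 ± 44.6), endodermis (57.0 ± 7.05), stele (36.4 ± 19.3) and cortex (20.5 ± 17.3) to 16.8 ± 4.08 in epidermis, and no pair of neighbours differed beyond the interval. The ends of that order differed by 2.08 (1.00 to 3.15). AT5G66780 had 88.6 ± 60.3 in protophloem, 31.0 ± 7.73 in epidermis, 36.1 ± 27.8 in columella and means of 13.7 in stele, 8.82 in endodermis and 7.77 in cortex. AT1G04560 had 64.9 ± 16.1 in protophloem and between 21.0 ± 8.53 (cortex) and 38.3 ± 12.4 (columella) elsewhere, and in both genes all neighbours had intervals that included 0. From protophloem to cortex, the ends of both orders, the levels spanned 2.00 (0.68 to 3.31) for AT5G66780 and 1.13 (0.10 to 2.17) for AT1G04560, whose F-test did not pass. Such intervals do not allow for the choice of the highest and lowest population.

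By the mean of log2(signal + 16), the highest population with salt was a different one for each gene, while by the mean signal, and on the log2 scale on replicates 1 and 2 alone, endodermis was the highest for both AT1G04560 and AT1G68500. The F-test between populations passed for AT1G68500 (F = 7.52, adjusted p = 0.000318), AT5G66780 (F = 5.70, adjusted p = 0.00179), AT1G05340 (F = 4.84, adjusted p = 0.00437) and AT1G04560 (F = 3.35, adjusted p = 0.0237), against 73.1% of all probe sets. AT1G05340 was highest in cortex at 15098 ± 9300.3, which was 1.22 (95% interval 0.09 to 2.34) above protophloem at 5344 ± 995 on the log2 scale, and lowest in epidermis at 2209 ± 898. Its salt levels spanned 2.56 (1.43 to 3.69), where the standard levels spanned 4.86. AT1G04560 was lowest in cortex at 217 ± 70.3, 1.27 (0.23 to 2.30) below protophloem at 533 ± 117, while the first 5 populations, between 533 ± 117 and 846 ± 606, had neighbours with intervals that included 0. The AT1G04560 call was lost without cortex salt replicate 1 (adjusted p = 0.0585) or 3 (adjusted p = 0.182). AT1G68500 was highest in endodermis at 1236 ± 422 and lowest by the log mean in protophloem at 244 ± 204, a span of 2.54 (1.46 to 3.62). AT5G66780 was highest in columella at 809 ± 554 and lowest in protophloem at 77.7 ± 35.0, a span of 2.96 (1.65 to 4.27). It was chosen by its columella change, so its F value and this span are not independent of that choice. In the orders of these last 2 genes no neighbours differed beyond their interval. In all, 36 of 40 intervals between neighbours, over both media, included 0.

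**Figure D3:**
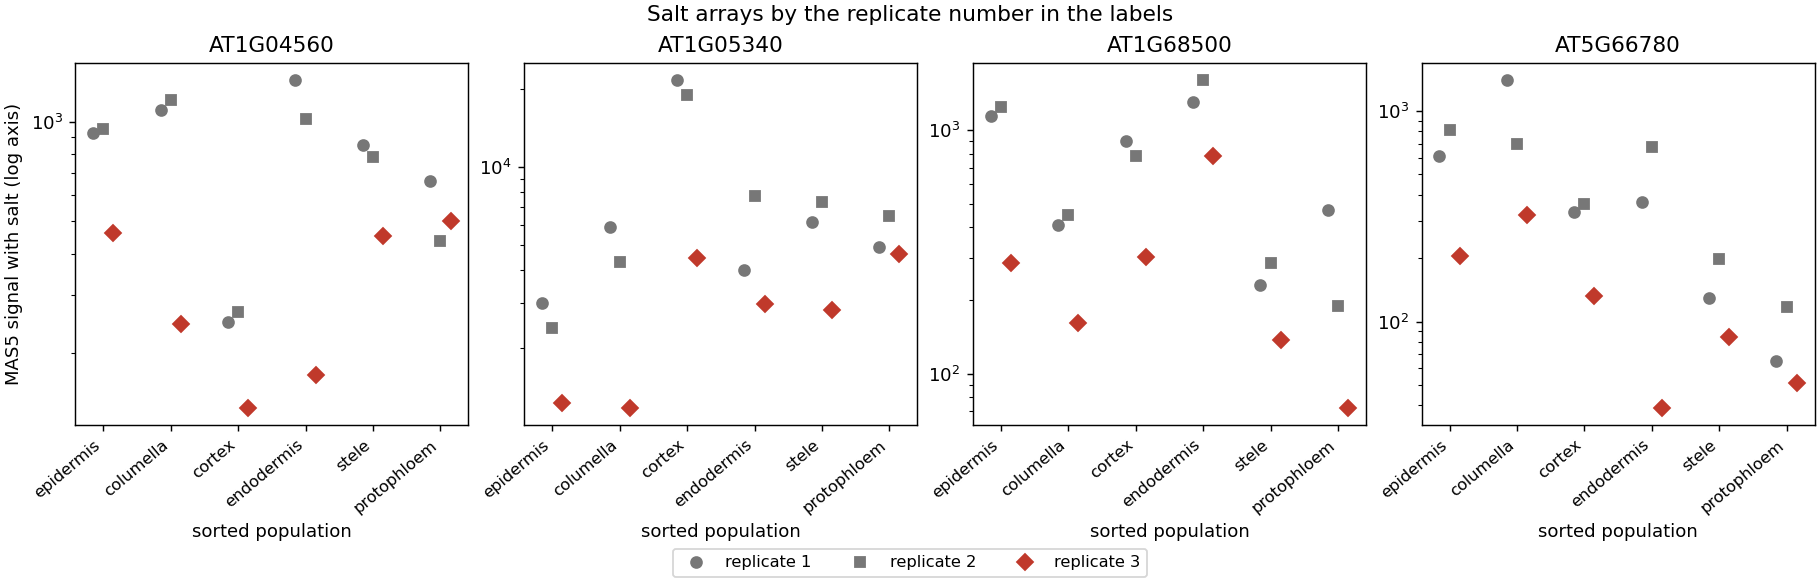
MAS5 signal (log axis) of the 4 genes on the 18 salt arrays by population, with grey circles and squares for the arrays numbered 1 and 2 and red diamonds for those numbered 3. The array numbered 3 is the lowest of its group in 23 of 24 combinations of gene and population.

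The salt arrays numbered 3 mostly gave the lowest signals of these genes, by margins that differed between genes and populations. The salt array numbered 3 had the lowest signal of its group for AT1G05340, AT1G68500 and AT5G66780 in 6 of 6 populations and for AT1G04560 in 5 of 6, protophloem being the exception. Its signal was 0.51 times the mean of the other 2 arrays for AT1G04560 at the median over populations (range 0.145 to 0.913), 0.438 times for AT1G05340 (0.219 to 0.812), 0.366 times for AT1G68500 (0.218 to 0.535) and 0.343 times for AT5G66780 (0.0742 to 0.56). On standard medium the array numbered 3 was the lowest in 9 of 24 combinations. The shares there were 38.8% over all probe sets tested and 23.8% over the 933 probe sets that rose at least 2-fold on average. Over all probe sets tested the salt array numbered 3 was the lowest in 35.5% of combinations, and over the 933 probe sets that rose at least 2-fold on average in 57.3%. The GAPDH ratio was highest on the salt array numbered 3 in 6 of 6 populations (0.223 to 0.406, against 0.0713 to 0.228 on the salt arrays numbered 1 and 2), and its part in the lower signals was not tested beyond the fit with the covariate. Without salt replicate 3 of endodermis, the change there was 4.92 for AT1G04560 and 4.43 for AT5G66780, in place of 4.03 and 3.35. Without salt replicate 3 of columella, the AT1G04560 change there was 4.42, in place of 3.71. On replicates 1 and 2 alone, a setting added after these values were seen, the protophloem changes were 2.64 ± 0.24 for AT1G04560, 1.33 ± 0.37 for AT1G05340, 1.31 ± 0.34 for AT1G68500 and 0.10 ± 0.47 for AT5G66780.

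The profiles of the 4 genes were compared over the 12 group means of log2(signal + 16), as a description of groups that share the salt contrast. AT1G04560 correlated with AT5G66780 at 0.87 and with AT1G68500 at 0.85, and AT1G68500 with AT5G66780 at 0.86. AT1G05340 stood further off, at 0.80 with AT1G68500, 0.74 with AT1G04560 and 0.65 with AT5G66780. Among 9843 named and tested probe sets with 1 gene, the profile most like that of AT1G04560 was AT3G17520, a late embryogenesis abundant (LEA) protein gene, at 0.92, followed by AT5G05220 and AT4G11570 at 0.91 each. AT1G05340 was most like SKP2A (AT1G21410), an F-box protein gene, at 0.955, AT5G19875 at 0.94 and AT1G21000 at 0.94. AT1G68500 was most like 2 LEA genes, AT3G02480 at 0.93 and LEA4-5 (AT5G06760) at 0.90, and AT3G12510 at 0.90. AT5G66780 was most like AT1G30860 at 0.91, AT1G52680 at 0.89 and the salt-induced gene SIS (AT5G02020) at 0.89. AT1G30860 and AT1G52680 changed much less than AT5G66780 with salt, by 0.60 ± 0.15 and 0.85 ± 0.15 on average, while SIS changed by 2.61 ± 0.13, and in protophloem these 3 genes had changes of -0.36, -0.01 and 0.98.

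**Figure D4:**
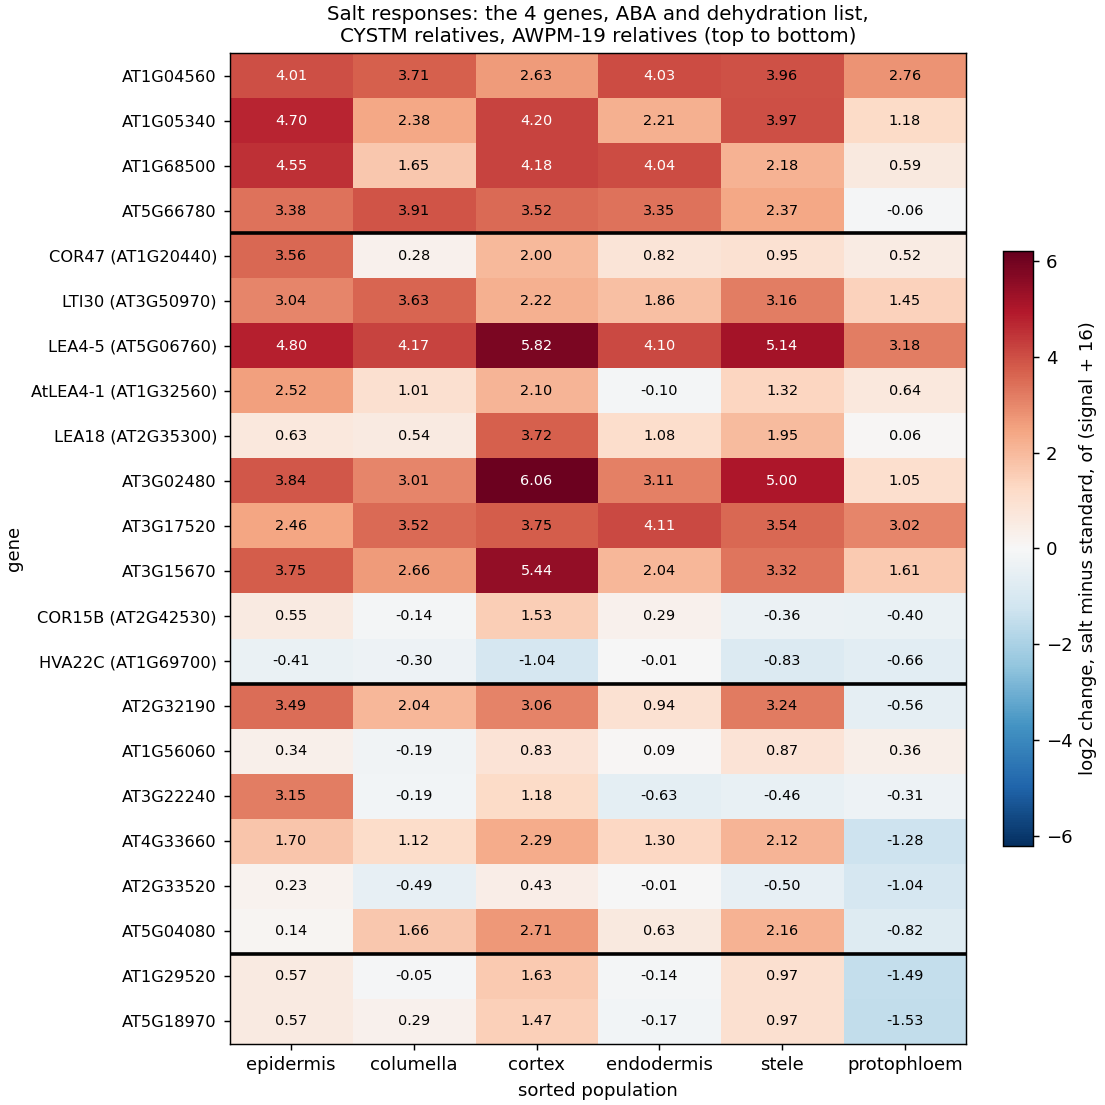
Log2 change of (signal + 16), salt minus standard, in each population (columns) for the 4 genes, 10 genes of the ABA and dehydration list, 6 CYSTM relatives and 2 AWPM-19 relatives (blocks from top to bottom), with red for higher with salt and blue for lower. In the block of AWPM-19 relatives the change is positive in cortex and stele and negative in protophloem, unlike AT1G04560 in the first row.

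Genes of the ABA and dehydration response were set beside the 4 genes. The list was drawn up with earlier results of these data known, so its counts are a description and no independent test. Of 40 listed genes 11 had a probe set of their own in the annotation used, and 10 entered the test (COR15A did not pass the filter). Of these 10 genes 8 rose and 1 fell in the mean over populations. Their median log2 change was 1.96, against -0.09 for all probe sets. LEA4-5 rose by 4.53 ± 0.17, AT3G02480 by 3.68 ± 0.26, AT3G17520 by 3.40 ± 0.20 and AT3G15670 by 3.14 ± 0.19, all of them LEA genes. The dehydrin genes LTI30 and COR47 rose by 2.56 ± 0.15 and 1.36 ± 0.13, and LEA18 (AT2G35300) and AtLEA4-1 (AT1G32560) by 1.33 ± 0.17 and 1.25 ± 0.15. HVA22C fell by 0.54 ± 0.14, and COR15B did not pass (0.25 ± 0.12). By population 9 of the 10 rose in cortex, 8 in stele, 7 in epidermis, 5 in columella, 5 in endodermis and 4 in protophloem. The shares of all probe sets that rose were 22.4%, 11.5%, 15.6%, 5.27%, 1.5% and 11.8% in the same order, and 20.8% for the mean. LEA4-5 and AT3G17520 rose in protophloem by 3.18 and 3.02, where the highest of the 4 genes, AT1G04560, was at 2.76, while AT3G02480 was at 1.05 and did not pass.

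Close relatives did not share the responses of AT1G04560 and AT1G05340 throughout. The AWPM-19 genes AT1G29520 and AT5G18970 were highest in protophloem, with mean signals of 5001 and 5021 with salt and 12547 and 13432 on standard medium. They rose in cortex by 1.63 and 1.47, fell in protophloem by 1.49 and 1.53, and did not pass in the mean over populations (0.25 ± 0.17 and 0.27 ± 0.20). Whether these probe sets also bind transcripts of each other's gene was not tested. Of 13 CYSTM relatives 6 were tested, of which 3 rose on average, against 20.8% of all probe sets. These were AT2G32190 by 2.04 ± 0.25, AT4G33660 by 1.21 ± 0.24 and AT5G04080 by 1.08 ± 0.25. AT2G32190 rose in epidermis (3.49), stele (3.24), cortex (3.06) and columella (2.04), and it did not pass in protophloem (-0.56), where its standard level was the highest of the 6 populations. AT3G22240 rose in epidermis by 3.15 and passed in no other population.

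The genes next to the 4 in the RefSeq order of protein-coding genes had a probe set of their own in the annotation used on 4 of 8 sides. AT1G05330 and AT1G05350, which flank AT1G05340, were at 0.17 ± 0.14 (limma adjusted p = 0.321) and -0.29 ± 0.12 (adjusted p = 0.0479) in the mean over populations. AT1G68490, next to AT1G68500, was at 0.21 ± 0.14 (adjusted p = 0.208), and AT5G66770, next to AT5G66780, fell by 0.41 ± 0.12 (adjusted p = 0.00518). No measured neighbour passed as higher with salt.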

How the data were processed

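RNA from sorted cells was amplified by Affymetrix's two-cycle method, per the labels' protocols. The authors deposited a linear intensity for each probe set on each array, made with MAS5 per the submitters' processing notes, and its version is not given in the sources used. Of 22810 probe sets, 64 controls were left out. Genes were named from 13513 probe sets with exactly 1 gene (503 had several, 8730 none), with symbols and gene order from RefSeq (TAIR10.1), whose coordinates were left out because the files name no build. A probe set was kept (17633, with all 4 genes) where 3 or more arrays gave it a signal over that array's 40th percentile. Values were transformed as log2(signal + 16). limma 3.58.1 in R 4.3.3 fitted a mean per group to all 36 arrays (24 residual degrees of freedom, eBayes with trend), with Benjamini-Hochberg adjustment over all kept probe sets at 0.05; tests are two-sided. Alternatives changed the offset, filter, normalization, variance trend, arrays in the fit, replicate block and GAPDH covariate, and replicates 1 and 2 alone were added after seeing the data. The code was tested on simulated data. Tables and figures used Python 3.11.15, pandas 2.3.3, numpy 2.4.6 and matplotlib 3.10.9. The members and lists were chosen with earlier results of these data known. The rule for named genes takes the members, for each the 3 most alike probe sets with 1 gene, the AWPM-19 and CYSTM families and the ABA and dehydration list. No sequences were used here.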

Additional observations from a re-analysis of the deposited data

How the results depend on the processing

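The 3 arrays per group and low standard signals limit these values. The mean salt change stayed positive in all alternatives that gave one for each of the 4 genes; it moved to 3.67 (offset 1) and 1.84 (offset 64) for AT5G66780 and to 2.65 (offset 64) for AT1G04560, while that of AT1G05340 ran from 2.73 (GAPDH covariate) to 3.57 (replicates 1 and 2 only). On standard medium, the F value of AT1G68500 fell below the threshold with an offset of 64 (F = 2.60) and with the GAPDH covariate (F = 1.93), and that of AT5G66780 with an offset of 64 (F = 1.29), while AT1G04560 passed on replicates 1 and 2 only (F = 10.6), a setting chosen after seeing the data. With the replicate block (the replicate number as a term) no call between populations changed for the 4 genes, with F = 1.66 for AT1G04560 on standard medium and 4.37 with salt. A replicate block within population was added after seeing the data. Each such block holds 1 salt and 1 standard array, so the salt changes could not move and only their SE could. The SE of the mean change was 0.18 for AT1G68500 and 0.21 for AT5G66780, in place of 0.22 and 0.26. Deviations of same-numbered salt and standard arrays correlated between -0.115 and 0.445, above 0.1 in 8 of 18 pairs, so the numbers were not taken as pairs. In 10 of 12 groups the arrays numbered 1 and 2 correlated best, and whether the arrays numbered 3 share a batch was not tested. With 1 array left out at a time, F of AT1G04560 with salt ran from 1.73 to 7.23 and F of AT5G66780 on standard medium from 1.69 to 4.40, where the call was lost without cortex replicate 1 or 2, endodermis replicate 1 or 3, or protophloem replicate 2 or 3. Counts of probe sets higher with salt changed over 1.5-fold in cortex (3948) with quantile normalization (2397) and the GAPDH covariate (2076), which also gave 1809 in epidermis (2757) and 1251 in protophloem (2082). The 6 arrays alone gave 4232 in epidermis, 272 in columella (929), 125 in endodermis (265) and 1054 in protophloem, and replicates 1 and 2 gave 1958 in columella and 865 in endodermis. Without 1 array these counts ran from 325 to 1401 in columella, 138 to 393 in endodermis, 1289 to 2462 in stele (2024) and 1257 to 2286 in protophloem. The cause of these shifts was not tested.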
